A study of Drosophila melanogaster with 4 samples.

Results

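The elements Doc, Doc3-element, F-element, I-element and G5A are non-LTR retrotransposons of *Drosophila melanogaster*, and they were taken by name from the reference set as 5 of its 124 transposons (150 sequences in all). The I-element is listed there as I-element_new. Non-LTR elements carry no terminal repeats and no envelope gene. They are copied through an RNA intermediate that their own reverse transcriptase turns into DNA at the new insertion site, starting from the 3' end of the RNA, and their sequences end in an A-rich or simple repeat tail. The I-element is known for hybrid dysgenesis, in which it mobilises in the female germline of certain crosses. Doc, Doc3-element, F-element and G5A belong to the jockey clade.

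Poly(A) RNA was read directly on a nanopore device in 4 libraries, 1 per group. Ovaries carried the genotype Tj-GAL4>arrestin2GD (control) or Tj-GAL4>vretenoGD. Tj-GAL4 drives expression in somatic ovary cells, and *vreteno* encodes a Tudor protein needed for making piRNAs. The second pair were OSCs, a cultured line of ovarian somatic follicle cells without germline, given siRNA against GFP (siGFP) or against *piwi* (siPIWI), which encodes the nuclear Argonaute guided by piRNAs, the small RNAs that silence transposons. The germline of the ovaries, where the driver is not active, keeps its own piRNA pathway. Transposon reads numbered 2382 and 5156 in ovaries of the control and the vreteno knockdown and 57045 and 164243 in siGFP and siPIWI OSCs. Reads on the non-transposon sequences of the set numbered 406, 245, 446 and 954 in the same order. The full depth of the libraries is unknown, so fewer transposon reads in ovaries need not mean shallower sequencing. The files give a count per position of each reference sequence and no strand, and the counts were taken from their pattern to be ends of reads. The files hold no mRNA counts, so neither the knockdowns nor the cell types were checked here.

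The 5 elements together held 250 reads in control ovaries and 261 after vreteno knockdown, and 149 and 487 in OSCs with siGFP and siPIWI. That was 10.5% of transposon reads in control ovaries (95% exact binomial interval 9.29 to 11.8) and 5.06% in knockdown ovaries (4.48 to 5.70). The lower share after the knockdown came with nearly equal reads of the 5, as all transposon reads numbered 2382 and 5156 in these libraries. In OSCs it was 0.261% (0.221 to 0.307) with siGFP and 0.297% (0.271 to 0.324) with siPIWI. With copia left out of the total the OSC direction turned, to 0.976% with siGFP and 0.630% with siPIWI. Doc made up 70.4% of these reads in control ovaries and 10.1% in siGFP OSCs. In a bulk sample, fewer cells of a type and less RNA per cell cannot be told apart. All intervals cover counting error only.

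The transposon insertions in the BDGP6 (dm6) annotation show how different the genomic stocks of these elements are in the reference strain, which need not be that of the flies or of the OSCs. Of 81 annotated Doc insertions, 45 were within 5% of the 4725 nt of the reference sequence, and so were 37 of 85 F-element loci (4708 nt; 87 records, of which 2 pairs overlap on the same strand and were joined) and 9 of 38 I-element insertions (5371 nt). Doc3-element had 1 such copy of 23 (4740 nt), a 4561 nt insertion on chromosome 3R from 3000109 to 3004669, inside the gene *Pzl* and on its strand. None of the 27 G5A insertions was within 5% of its 2841 nt, and their median length was 289 nt. In 4 insertions the 3' end lay in an exon of a gene on the same strand. For G5A these were in the 3' UTR of *nrm* (3L, 23039222 to 23039688) and of *Ssu72* (X, 19666231 to 19666846). For the I-element they were in the 5' UTR of *hd* (3R, 5374721 to 5374811) and the 3' UTR of *Top1* (X, 15326740 to 15326927). Reads from those host genes and from the elements cannot be told apart in these counts.

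Doc was the most abundant of the 5 in ovaries, where the other 4 followed at a distance. It had 176 reads in control ovaries and 170 after vreteno knockdown, but 15 and 86 in OSCs with siGFP and siPIWI. It ranked 5th among the 98 transposons with a read in control ovaries and 49th of 94 in siGFP OSCs. Its share of transposon reads was 7.39% (6.37 to 8.51) in control ovaries against 0.0263% (0.0147 to 0.0434) in siGFP OSCs, a ratio of 281 (166 to 513). The retrotransposon copia fills most of the OSC libraries, and with copia left out of the denominator the ratio was 95.1 (56.1 to 174). Between the knockdown libraries the ratio of shares was 63.0 (48.3 to 82.6).

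Doc3-element had 36 and 34 reads in the ovary libraries, control first, and 60 and 90 in the OSC libraries. G5A had 29, 31, 32 and 31 reads in the same order, nearly the same number in libraries whose transposon totals ranged from 2382 to 164243. Both were larger parts of the transposon reads in ovaries than in OSCs, with ratios of control shares of 14.4 (9.23 to 22.1) for Doc3-element and 21.7 (12.7 to 37.0) for G5A. Without copia these ratios were 4.86 (3.12 to 7.47) and 7.34 (4.29 to 12.5). Every such ratio of shares, also for the other elements, depends on how many other transposon reads a library holds. Reads on the non-transposon sequences of the reference set numbered 406 in control ovaries and 446 in siGFP OSCs. Beside these, G5A had 29 and 32 reads and Doc3-element 36 and 60. In the same libraries Doc had 176 and 15 reads, F-element 7 and 19 and I-element 2 and 23.

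F-element and I-element were the scarcest of the 5 in ovaries. F-element had 7 and 17 reads in ovaries, again control first, and 19 and 163 in OSCs. I-element had 2 and 9 reads in ovaries and 23 and 117 in OSCs. For both, the siPIWI library held the most reads by far, but it also had the most transposon reads of the 4 libraries. By share, F-element was at 0.0992% there, against 0.0333% with siGFP and 0.294% and 0.330% in ovaries. I-element was at 0.0712% there, against 0.0403% with siGFP and 0.0840% and 0.175% in ovaries. The F-element's share in control ovaries was 8.82 times that in siGFP OSCs (3.13 to 21.9), and 2.99 times (1.06 to 7.42) without copia. Its reads went the other way, 7 against 19, in libraries with 406 and 446 reads on non-transposon sequences. For the I-element the ratio of these shares was 2.08, with an interval of 0.238 to 8.43 that includes 1. No difference in share between control ovaries and siGFP OSCs was thus detectable. Without copia the direction of the ratio turned, at 0.705 (0.0805 to 2.85). This holds for shares of transposon reads only, as the I-element reads were 2 and 23 beside those 406 and 446 non-transposon reads. Between the knockdown libraries the I-element ratio was 2.45 (1.09 to 4.81), and 1.40 (0.624 to 2.75) without copia. The F-element ratio between them was 3.32 (1.89 to 5.49), and 1.90 (1.08 to 3.13) without copia.

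**Figure D1:**
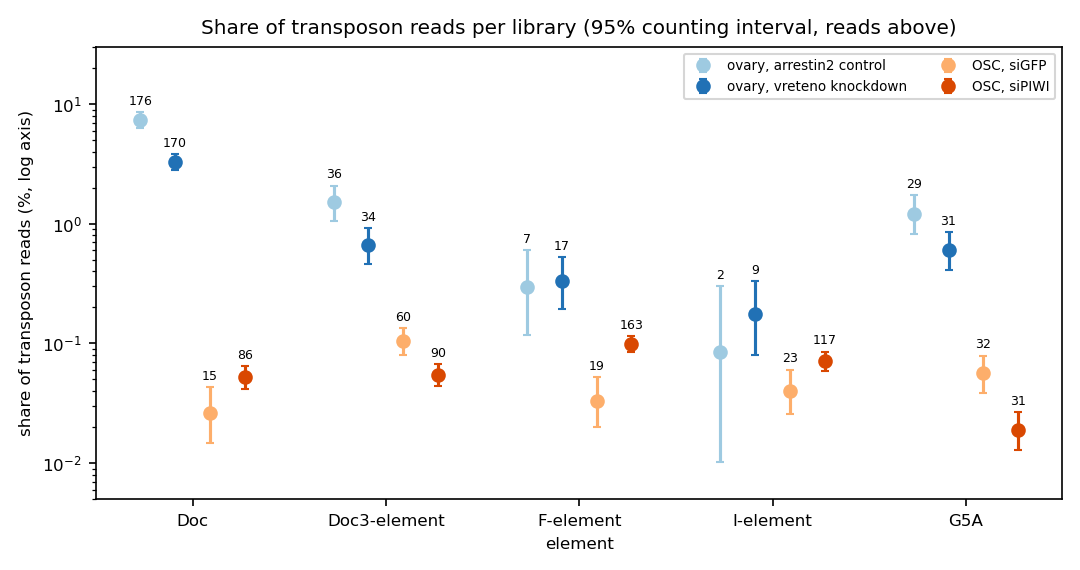
Share of transposon reads (percent, log axis) of each element in the 4 libraries, with 95% exact binomial intervals and the number of reads above each point. Doc lies at 7.39% and 3.30% in the ovary libraries and below 0.1% in both OSC libraries, while the I-element intervals of control ovaries and siGFP OSCs overlap.

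The order of the 5 differed between the libraries. In control ovaries, by reads, Doc came first, then Doc3-element and G5A, then F-element and I-element. The step from Doc to Doc3-element (ratio 4.89, 3.40 to 7.21) and the step from G5A to F-element (4.14, 1.78 to 11.2) lay outside counting error. Doc3-element and G5A did not differ beyond it (1.24, 0.740 to 2.10), nor did F-element and I-element (3.50, 0.666 to 34.5). Per kilobase of reference sequence, G5A moved ahead of Doc3-element, at 10.2 against 7.59 reads per kilobase, with a ratio of 1.34 (0.795 to 2.25). After vreteno knockdown the order by reads was the same, and only the step from Doc to Doc3-element (ratio interval 3.44 to 7.46) lay outside counting error. In siGFP OSCs it was Doc3-element, G5A, I-element, F-element and Doc, where only the first step did (1.88, 1.20 to 2.98). Per kilobase the first step there, 12.7 against 11.3 reads, was within counting error, and the step from G5A to I-element (2.63, 1.49 to 4.71) was not. In siPIWI OSCs the order by reads was F-element, I-element, Doc3-element, Doc and G5A. There F-element exceeded I-element by a ratio of 1.39 (1.09 to 1.78), Doc exceeded G5A by 2.77 (1.82 to 4.33), and I-element, Doc3-element and Doc each overlapped their neighbours. The order per kilobase was the same in that library.

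The first comparison asked whether the ovary libraries differed in RNA of these elements after somatic loss of *vreteno*. None of the 4 elements with at least 10 reads in 1 of the libraries was at least 4-fold higher or lower. Of the 45 transposons past that minimum, 24.4% were higher by at least 4-fold, while 0% were lower by as much. Folds are ratios of reads after scaling by the median ratio over shared transposons, and the call uses log2 ratios with a pseudocount of 1 read. With 1 library per group there is no test across conditions.

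Doc had a fold of 1.07 (0.861 to 1.33), Doc3-element 1.05 (0.635 to 1.72) and G5A 1.18 (0.690 to 2.04). All 3 intervals included 1, and the 2 ovary libraries differed by at most 6 reads for each of these elements before scaling. Their log2 ratios, 0.10, 0.06 and 0.24, turned negative with total transposon scaling, to -1.16 for Doc and Doc3-element and -0.98 for G5A. With scaling to non-transposon reads they rose, to 0.67 for Doc, 0.63 for Doc3-element and 0.80 for G5A. For Doc this lay above its counting interval (log2 -0.22 to 0.41). Doc, with the most reads, gave the narrowest interval of the 5.

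F-element, with its 7 and 17 reads, had a fold of 2.69 (1.06 to 7.67). It was the only one of the 4 at least 2-fold higher, against 42.2% of all transposons (0% were at least 2-fold lower). I-element, below the minimum with 2 and 9 reads, had a fold of 4.98 (1.03 to 47.4). Both intervals reached close to 1, and the log2 ratios with total scaling were 0.15 for F-element and 0.85 for I-element. With scaling to non-transposon reads they were 1.83 and 2.30.

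The siRNA pair put that question to the OSCs, with *piwi* as the target. F-element was the only one of the 5 at least 4-fold higher, and none was at least 4-fold lower. Of the 73 transposons past the minimum, 24.7% were higher by at least 4-fold, while 0% were lower by as much. F-element, I-element and Doc were at least 2-fold higher and G5A at least 2-fold lower, against 38.4% and 5.48% of all transposons. The median log2 ratio of the 5 was 1.33, beside 0.29 over the 73.

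F-element went from 19 reads with siGFP to 163 with siPIWI, a fold of 4.32 (2.68 to 7.36). Doc went from 15 to 86 reads, 2.89-fold higher (1.66 to 5.38). I-element went from 23 to 117 reads, 2.56-fold higher (1.63 to 4.20). These 3 had intervals above 1, and their log2 ratios were above 0 under each of 8 other settings, down to 0.75 for F-element, 0.17 for Doc and 0.0063 for I-element with total scaling that left out copia. F-element no longer passed 4-fold with total transposon scaling (log2 ratio 1.55, or 0.75 without copia), with non-transposon scaling (1.97) or with a pseudocount of 10 reads (1.77).

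Doc3-element went from 60 to 90 reads, a fold of 0.756 (0.539 to 1.07) that includes 1. Its log2 ratio of -0.40 became 0.58 without scaling, the only 1 of the 8 other settings in which it was above 0. G5A had 32 and 31 reads, a fold of 0.488 (0.288 to 0.826). Its interval lay below 1, but the reads themselves were nearly equal, so that the fold rests on the OSC scaling of 1.99. It lay just past the 2-fold limit, and its log2 ratio without scaling was -0.04. That was the highest of the 8 other settings, with -1.11 for non-transposon, -1.52 for total transposon and -2.30 for total scaling without copia.

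**Figure D2:**
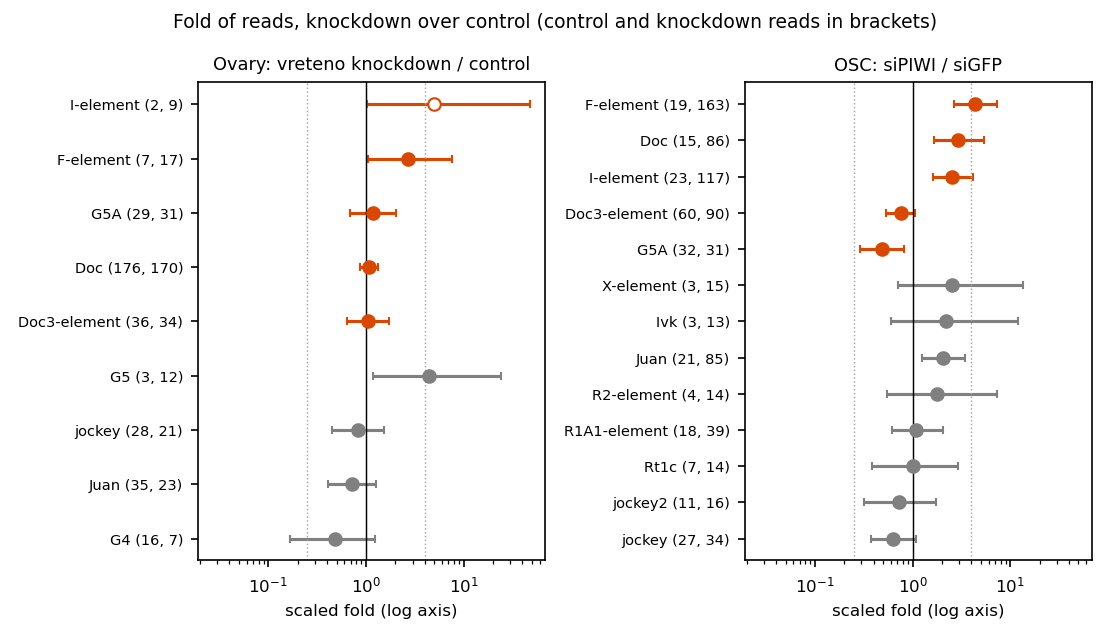
Scaled fold of reads, knockdown over control (log axis), in ovary (left) and OSCs (right), with exact 95% counting intervals. The 5 elements are in orange, other listed non-LTR elements past the minimum of 10 reads in grey, an open point marks I-element below the minimum, and dotted lines mark 4-fold. F-element, Doc and I-element lie above 1 in OSCs and G5A below 1.

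The folds of the 2 systems were set against each other as a log2 difference, OSC minus ovary. For Doc it was 1.43 (0.56 to 2.38), since Doc was near 1 in ovary. For F-element it was 0.67 (-1.02 to 2.24) and for I-element -0.96 (-4.30 to 1.45), so no difference between the systems was detectable for either. The error of the scaling itself could multiply every ovary fold by 0.845 to 1.19, and every OSC fold by 0.754 to 1.28.

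Among the other 25 non-LTR elements of the lists, 4 passed the minimum in ovary and 8 in OSCs. None was called at least 4-fold higher or lower in either comparison. Of all transposons past the minimum, 24.4% in ovary and 24.7% in OSCs were called higher and 0% lower. In OSCs the highest were X-element at a fold of 2.52 (0.713 to 13.6), Juan at 2.04 (1.25 to 3.46) and Ivk, an element of the I clade, at 2.18 (0.600 to 11.9). The lowest was jockey, the element that names the clade, at 0.634 (0.372 to 1.09), then jockey2 at 0.733 (0.319 to 1.75) and Rt1c at 1.01 (0.381 to 2.95). In ovary G5 had 3 and 12 reads, a fold of 4.43 (1.20 to 24.5). With the pseudocount its log2 ratio was 1.82, short of the 4-fold call. There jockey had a fold of 0.830 (0.448 to 1.52), Juan 0.728 (0.410 to 1.27) and G4 0.484 (0.169 to 1.24). Juan was thus the only one of the 8 in OSCs with an interval above 1, and G5 the only one of the 4 in ovary.

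The F-element differed between the OSC libraries in where its reads ended. Reads ending in the last 100 nt numbered 8 of 19 with siGFP and 150 of 163 with siPIWI, shares of 42.1% (20.3 to 66.5) and 92.0% (86.7 to 95.7) with separate intervals. Its reads ending there were 9.45-fold higher (4.67 to 22.3). Its reads ending further upstream numbered 11 and 13, a fold of 0.595 (0.246 to 1.47). With the last 30% of the sequence in place of the last 100 nt the shares were 57.9% (33.5 to 79.7) and 92.6% (87.5 to 96.1), still separate. The fold of 4.32 for the whole element thus joins a set of 3' ends that was much more numerous with siPIWI and a set of upstream ends for which no difference was detectable.

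The upstream F-element ends included a group near the 5' end of the sequence. In siGFP OSCs 6 of 19 reads ended between positions 89 and 185, and in siPIWI OSCs 6 of 163 between 91 and 168, with at most 2 reads on 1 position. These were 31.6% (12.6 to 56.6) and 3.68% (1.36 to 7.84) of the element's reads. In the ovary libraries no F-element read ended in the first 10% of the sequence, and 0 of 17 reads after vreteno knockdown leaves an upper bound of 19.5%. Since no strand is given, these ends may belong to sense or antisense RNA.

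As background, 54 transposons had 10 or more reads in each OSC library, and 18.5% of them ended more often in the last 100 nt with siPIWI, by separate intervals, and 3.7% less often. F-element was the only one of the 5 among them, and the only one of 9 listed non-LTR elements. In ovary, of 30 transposons, 3.33% ended there more often after the knockdown and 0% less often, and none of Doc, Doc3-element and G5A was among them. F-element and I-element had too few ovary reads to enter that comparison.

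**Figure D3:**
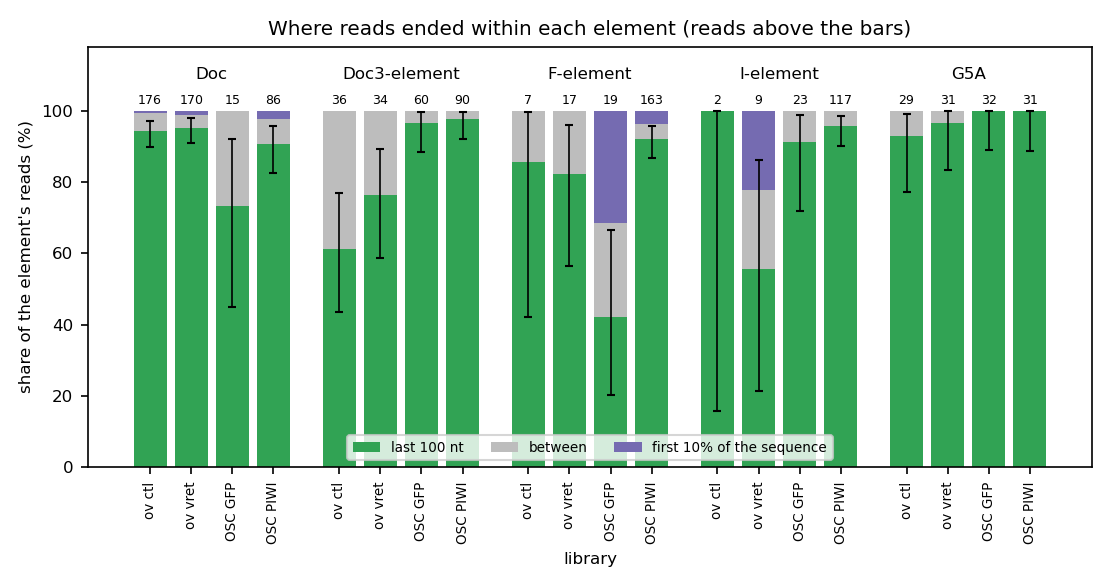
Share of each element's reads (percent) that ended in the last 100 nt, in the first 10% of the sequence or between, per library, with the exact 95% interval of the last 100 nt and the number of reads above each bar. F-element goes from 42.1% with siGFP to 92.0% with siPIWI, and Doc3-element lies lower in the ovary libraries than in OSCs.

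The other elements ended mostly in the last 100 nt. Doc did so for 166 of 176 and 162 of 170 reads in ovaries, 11 of 15 in siGFP OSCs and 78 of 86 in siPIWI OSCs. I-element did so for 2 of 2 and 5 of 9 reads in ovaries and 21 of 23 and 112 of 117 in OSCs. All G5A reads of the OSC libraries, 32 and 31, ended there, as did 27 of 29 and 30 of 31 in ovaries. For these 3 elements the intervals of control and knockdown overlapped in both systems. Restricted to the last 100 nt, the OSC fold was 3.57 (1.89 to 7.45) for Doc and 2.69 (1.68 to 4.51) for I-element.

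Doc3-element had fewer of its ends there in ovaries than in OSCs. In ovaries 61.1% (43.5 to 76.9) and 76.5% (58.8 to 89.3) of its reads ended in the last 100 nt. In OSCs it was 96.7% (88.5 to 99.6) and 97.8% (92.2 to 99.7). Upstream ends numbered 14 of 36 and 8 of 34 reads in ovaries and 2 of 60 and 2 of 90 in OSCs. The intervals of the control libraries did not overlap, nor did those of the knockdown libraries. The intervals of control and knockdown overlapped within each system. With the last 10% of the sequence the knockdown libraries of the systems overlapped, at 91.2% (76.3 to 98.1) and 98.9%, with a lower bound of 94.0, while the controls were separate at 63.9% (46.2 to 79.2) and 100%, the latter with a lower bound of 94.0. At that window the gap between control and knockdown ovaries, 63.9% against 91.2%, was larger than that between the knockdown libraries, and their intervals overlapped narrowly.

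Within the last 100 nt, reads of each element ended mostly at positions found in more than 1 library. For Doc, 97.1% of the 417 such reads of the 4 libraries lay at positions used in at least 2 of them, and the share was 91.7% to 97.9% for the other 4 elements. Positions used in all 4 libraries held fewer, 38.8% of the reads for F-element, 63.6% for I-element, 68.8% for Doc, 71.7% for G5A and 84.5% for Doc3-element. The siPIWI library gave 150 of the 178 F-element reads and 112 of the 140 I-element reads behind these shares. Positions holding at least 5% of an element's 3' reads numbered 6 for Doc (12 to 27 nt from the end of the sequence), 6 for F-element (6 to 26 nt), 4 for I-element (2 to 24 nt), 3 for Doc3-element (22 to 67 nt) and 2 for G5A (5 and 19 nt). The median step between neighbouring positions was 3 nt in Doc, 4 nt in F-element and 6 nt in I-element. Ends of Doc3-element were farther apart, at steps of 13 and 32 nt, and G5A had a single step of 14 nt.

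In OSCs, I-element reads ended most often at position 5369, 2 nt before the end of the sequence, with 10 of 23 reads with siGFP and 41 of 117 with siPIWI. Positions 5364 and 5358 followed, with 30 and 16 reads with siPIWI. The reads of F-element peaked at position 4698 in both OSC libraries, with 4 of 19 and 35 of 163 reads. The same main position was thus found with and without *piwi* knockdown for both elements.

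At some positions the share of ends differed between ovaries and OSCs in 1 of the library pairs, and at none of those described here in both pairs. Doc reads ending at positions 4708 and 4709 made up 42 of 176 and 39 of 170 reads in ovaries, but 1 of 15 and 1 of 86 in OSCs. For the control libraries that was 23.9% (17.8 to 30.9) against 6.67% (0.169 to 31.9), with overlapping intervals. At position 4708 alone the knockdown libraries held 19.4% (13.8 to 26.2) against 1.16% (0.0294 to 6.31), which were separate. At position 4713 the shares were 21.6% and 23.5% in ovaries and 26.7% and 20.9% in OSCs, with overlapping intervals.

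G5A reads ended at position 2836 in 18 of 29 and 22 of 31 cases in ovaries and in 12 of 32 and 13 of 31 cases in OSCs. At position 2822 the numbers were 1 of 29 and 1 of 31 in ovaries and 12 of 32 and 7 of 31 in OSCs. For the control libraries that was 3.45% (0.0873 to 17.8) against 37.5% (21.1 to 56.3), with separate intervals, while those of the knockdown libraries overlapped (3.23%, 0.0816 to 16.7, against 22.6%, 9.59 to 41.1). Doc3-element reads at position 4673 numbered 1 of 36 and 1 of 34 in ovaries and 12 of 60 and 11 of 90 in OSCs, with overlapping intervals. Its main position, 4718, was the same in the 4 libraries. These positions were singled out after their values had been seen.

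**Figure D4:**
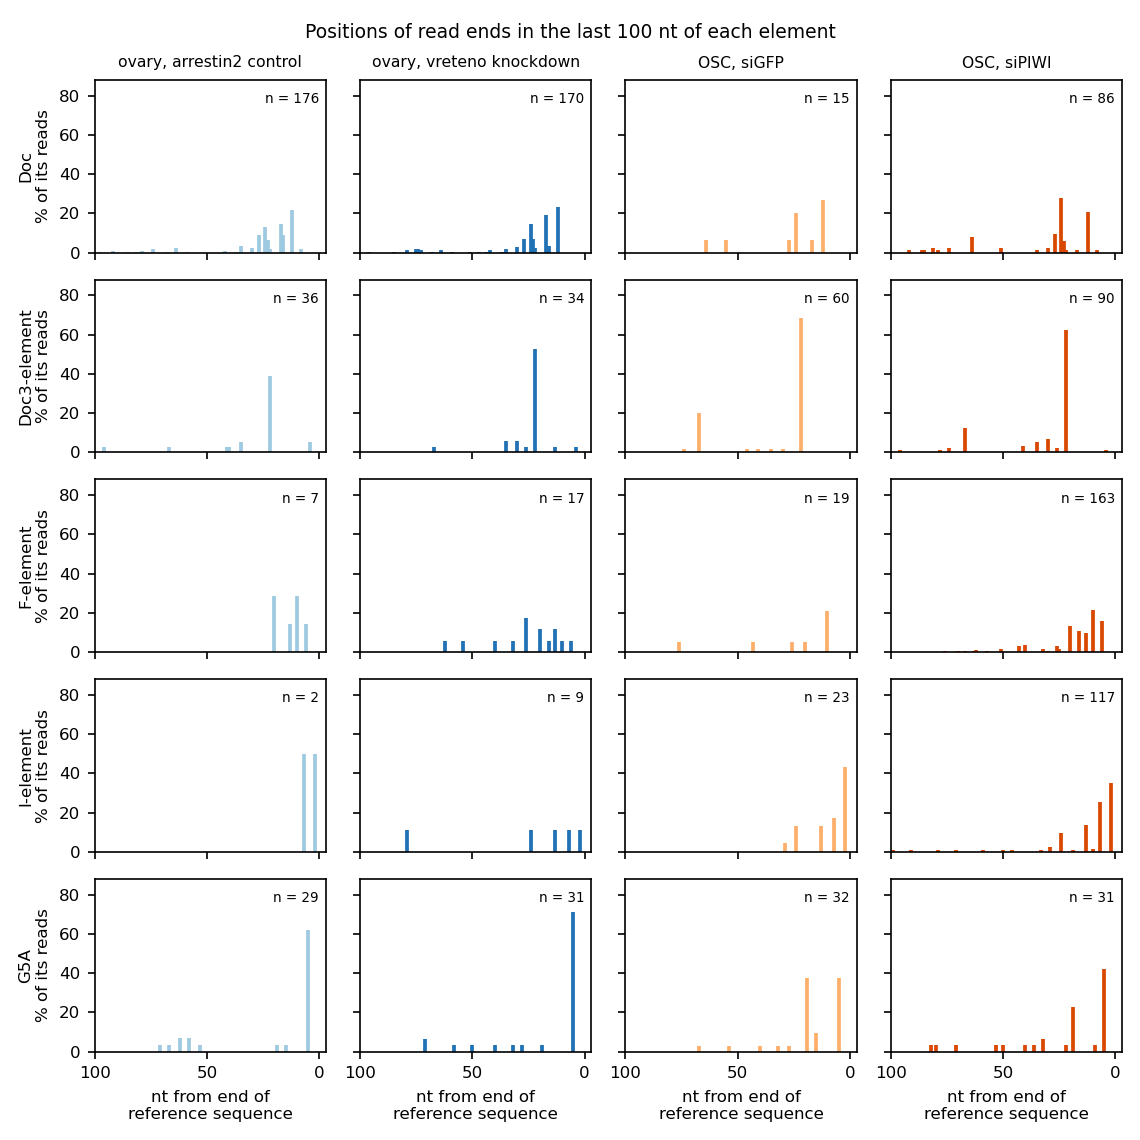
Read ends in the last 100 nt of each element (rows) in the 4 libraries (columns), as percent of the element's reads against the distance from the end of the reference sequence in nt. Doc ends 17 nt from the end appear in both ovary panels and hardly in the siPIWI panel, while the siGFP panel holds only 15 Doc reads. G5A ends 19 nt from the end are a larger share in siGFP OSCs than in control ovaries.

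The transposons with the most similar profile over the 4 libraries were found by the Euclidean distance between centred log2 depth-scaled transposon reads, among 78 transposons with at least 10 reads in 1 library. For Doc these were P-element (distance 0.38, with 54, 43, 3 and 26 reads), Dm88 (0.79) and Max-element (1.55), where the median distance was 5.71. For Doc3-element they were TAHRE (0.45), invader2 (0.49) and roo (0.53), and for G5A jockey (0.51), Repbase_DNAREP1 (0.62) and S-element (0.78). For I-element they were gypsy6_new (0.59), blood (1.11) and Quasimodo (1.17), and for F-element blood (1.30), '17.6' (1.38) and R1A1-element (1.39). With 4 libraries such distances describe these profiles and no more.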

How the data were processed

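Direct RNA sequencing (RNA002 kit with reverse transcription, after oligo(dT) selection, per the labels' protocols) gave 4 libraries, 1 per group. The authors deposited whole-number counts per position of 150 reference sequences (672432 positions). The aligner was minimap2, per the submitters' processing notes. The minimap2 release, the alignment options, the strand and the handling of reads matching several sequences: not given in the sources used here. Isolated positions with counts, and no filled stretches, were read as ends of reads.

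Reads per element were summed over positions. Libraries of a pair were scaled by the median ratio over transposons having 10 or more reads in each, 0.903 in ovary (30 transposons) and 1.99 in OSCs (54), and log2 ratios used both libraries at the geometric mean of their depths with a pseudocount of 1. Folds have exact conditional 95% intervals and shares exact Clopper-Pearson intervals. The full library depth is unknown; a count of 0 allows up to 3 reads, 0.126% of transposon reads in control ovaries and 0.00526% in siGFP OSCs. No test across conditions was possible. Members, lists and tests were chosen with earlier results of these data known. Profiles were compared as centred log2 RPM of transposon reads with a pseudocount of 10. Named were the 5 members, up to 3 highest and lowest other non-LTR elements past the minimum, the 3 nearest profiles, and up to 3 positions per library with at least 3 reads. Of 35 listed non-LTR names 30 were matched. Copies came from the Ensembl BDGP6 annotation, whose build plays no part in the positions of the files. No element sequences were used. Python 3.11.15, numpy 2.4.6, pandas 2.3.3 and scipy 1.17.1 were used, and the code was tested on simulated data.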

Additional observations from a re-analysis of the deposited data

Results flagged for a closer look

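With the median scaling, G5A and Doc3-element had log2 ratios of opposite sign in the 2 systems, and no test across conditions of this difference was possible. With total transposon scaling the signs were the same. The log2 ratios were then -0.98 in ovary and -1.52 in OSCs for G5A, and -1.16 and -0.93 for Doc3-element. With scaling to non-transposon reads the signs stayed opposite, at 0.80 and -1.11 for G5A and 0.63 and -0.51 for Doc3-element. For G5A the fold was 1.18 in ovary and 0.488 in OSCs, a log2 difference (OSC minus ovary) of -1.28 with a counting interval of -2.39 to -0.17. For Doc3-element the folds were 1.05 and 0.756, a log2 difference of -0.47 (-1.35 to 0.41). The intervals of both ovary folds included 1, and the intervals of the differences leave out the error of the scaling. The raw reads of G5A were 29 and 31 in ovary and 32 and 31 in OSCs.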

How the results depend on the processing

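No paired analysis was possible because each group had 1 library. For the same reason no library could be left out. The median log2 ratio of the 5 elements, I-element included, was 0.24 in ovary, and -0.98 with scaling to total transposon reads or -1.04 with copia left out of that total. With scaling to non-transposon reads the ovary median was 0.80. In OSCs the median was 1.33, and 0.0063 with total scaling without copia or 2.30 with no scaling. At least 4-fold higher were 0 elements in ovary and 1 in OSCs. At 2-fold these became 1 and 3, with 1 lower in OSCs, and the OSC count became 0 with scaling to total transposon reads, with scaling to non-transposon reads or with a pseudocount of 10. The share of the 5 in transposon reads without copia was 13.3% and 6.14% in control and knockdown ovaries and 0.976% and 0.630% in siGFP and siPIWI OSCs, where the direction turned, and 8.97% of all reads in the control ovary file. Ends in the last 100 nt were 89.2%, 90.8%, 87.2% and 94.3% of their reads in the 4 libraries. With the last 30% of the sequence they were 95.6% and 95.02% in ovaries and 92.6% in siGFP OSCs, and without the highest position of each element 75.6% and 91.2% in siGFP and siPIWI OSCs. Scaling the knockdown library alone, an alternative chosen after seeing the data, moved G5A in OSCs to -0.99, just inside the 2-fold limit. The ovary counts of F-element and I-element limit what can be said of them there.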

Other observations

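Juan, a jockey-clade element, kept many ends away from the 3' end in each library. Its reads in the last 100 nt of 4236 numbered 20 of 35 in control ovaries, 12 of 23 in vreteno knockdown ovaries, 14 of 21 in siGFP OSCs and 56 of 85 in siPIWI OSCs. The share in siPIWI OSCs was 65.9% (54.8 to 75.8). Position 4222 held the most Juan reads in each of the 4 libraries, with 8, 7, 10 and 27. For jockey the position with the most reads was 5000 of 5020 in each library, with 6, 5, 13 and 10 reads.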
